A study of Mus musculus with 8 samples.

Results

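The 10 core circadian clock genes Clock, Arntl (also written Bmal1), Npas2, Per1, Per2, Per3, Cry1, Cry2, Nr1d1 and Dbp were taken by name from gene tables that list 55487 Ensembl genes. All 10 were found, and all 10 passed the filter on low counts. The tables come from RNA sequencing of mouse dorsomedial hypothalamus (DMH), which takes part in the daily timing of feeding, sleep and body temperature, with sample names that mark the tissue as cut out by laser microdissection. In the group shPpp1r17 a short hairpin RNA was directed against Ppp1r17, an inhibitor of protein phosphatases, and the labels give the genotype Ppp1r17 knockdown. The control group, shfLuc, carried a hairpin against firefly luciferase, a gene that mice lack (genotype fLuc knockdown). Each group held 4 libraries. The sources used here do not give the strain, sex, age, vector, promoter or time of day. They also leave unsaid whether libraries came from different animals, so a p-value here reflects library-to-library spread, part of which may be technical.

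The mammalian clock is a transcriptional feedback loop. CLOCK (or its relative NPAS2) and BMAL1, the protein of Arntl, bind E-box elements and switch on the Per and Cry genes, whose proteins then block their own activators. Nr1d1, which encodes the repressor REV-ERBα, closes an accessory loop by silencing Arntl, and Dbp is an output gene whose protein acts on D-box elements. Because Arntl and Dbp peak at opposite times of day, their ratio swings widely over the daily cycle in most tissues. The suprachiasmatic nucleus of the hypothalamus is the master pacemaker, and other hypothalamic nuclei hold clocks that it sets.

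The promoters of these genes were searched for the letters of elements through which proteins of the loop act. The 4 stretches shown, from Per1, Per3, Cry1 and Nr1d1, hold letters that match an E-box, E′-box or D-box. They come from RefSeq promoter windows of GRCm38.p6, 250 bases before to 50 bases after a transcript start, are written 5′ to 3′ on the gene's strand, and carry each E-box, E′-box or D-box in capitals. The Per3 stretch lies on the minus strand at chr4:151044805-151044880, the Per1 stretch on the plus strand at chr11:69098769-69098829, the Cry1 stretch on the minus strand at chr10:85185099-85185144 and the Nr1d1 stretch on the minus strand at chr11:98775387-98775437.
Per3: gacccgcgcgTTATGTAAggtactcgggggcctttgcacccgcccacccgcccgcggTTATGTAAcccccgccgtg
Per1: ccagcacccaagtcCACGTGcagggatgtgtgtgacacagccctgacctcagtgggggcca
Cry1: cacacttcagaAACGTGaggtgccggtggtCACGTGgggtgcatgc
Nr1d1: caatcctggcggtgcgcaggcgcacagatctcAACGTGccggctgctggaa

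Both capital runs in Per3 are D-boxes, 205 and 158 bases before the transcript start, the element read by the protein of Dbp and its relatives. Per1 holds an E-box 166 bases before a transcript start that lies inside the annotated gene, and the lower-case tgacct downstream of it is the receptor element AGGTCA seen from the other strand. Cry1 holds an E-box 60 bases before its start and, 79 bases before it, an E′-box, here seen from the other strand as AACGTG. Nr1d1 holds an E′-box 28 bases before its start. The search covered both strands for the E-box CACGTG, the E′-box CACGTT, the D-box TTATGTAA or TTACGTAA, the receptor element AGGTCA, read by REV-ERB and ROR proteins, and the cyclic AMP element TGACGTCA. Windows were present for 9 of the 10 members (13 windows, Per2 having none). A member was counted if any of its windows held the element, while the share over all promoters is per window. Members with several windows (Clock, Arntl and Per1) thus had more room for a match. An E-box was found in 2 members and in 7.15% of all 32851 promoters, an E′-box in 3 members (Cry2 as well) and in 4.68%, and a D-box in 1 member and in 1.06%. The receptor element was found in 3 members (Clock, Arntl and Per1) and in 16.3% of promoters, and the cyclic AMP element in 0 members and 1.79%. A match is a stretch of letters and not a measured binding site, and an element outside the window would not be seen.

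The libraries held 23070147 to 33907984 estimated reads. The targeted gene, Ppp1r17, stood at 118, 134, 137 and 140 TPM (transcript abundance scaled to gene length and library) in shfLuc libraries 1 to 4. In shPpp1r17 libraries 1 to 4 it stood at 69.3, 1.63, 2.37 and 67.4 TPM, so the groups did not overlap but libraries 2 and 3 were far below libraries 1 and 4. Those 2 libraries also had the 2 highest scores on principal component 1, which took 32.3% of the variance over all genes. Across all genes 1050 of 17339 passed edgeR's quasi-likelihood test at an adjusted p of 0.05 (588 higher and 462 lower in shPpp1r17), and 37 passed without shPpp1r17 libraries 2 and 3. Leaving out single libraries moved that count to between 0 (without shfLuc library 2 or 3) and 1548 (without shPpp1r17 library 4). Of 7 DMH marker genes, Ppp1r17 among them, none was at 0 in any library. The 8 markers of the neighbouring suprachiasmatic nucleus differed in level. Vip, its peptide transmitter, stood at 0.174 to 1.75 TPM and Six6, a transcription factor of that nucleus, at 0.344 to 1.11 TPM, but Grp and Syt10 had shfLuc means of 52.5 and 23.7 TPM.

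None of the 10 clock genes rose or fell with the Ppp1r17 hairpin by that test. Ppp1r17 itself did not pass it either (log2 fold change -1.83, 95% interval -3.56 to -0.10, edgeR adjusted p = 0.197). The target passed in 3 of 20 alternatives, so a gene that does not pass here may still differ. Over all genes 6.06% passed it, 3.39% higher and 2.66% lower in shPpp1r17. By DESeq2 1 clock gene passed (Per3, lower). Only Per3 had an unadjusted p under 0.05 in the edgeR fit, against 22.6% of all genes. In no clock gene did the normalised counts of the 2 groups separate without overlap, against 13.9% of all genes. The fitted log2 fold change was above 0 for 3 members and below 0 for 7, with a median of -0.05 beside 0.0043 over all genes.

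The mean levels of the clock genes had the same order in both groups. Per3, the third of the period repressors, had the highest level in shfLuc at 63.7 ± 15.4 TPM (SD, n = 4), followed by Dbp at 40.1 ± 5.98 TPM and Nr1d1 at 30.01 ± 2.69 TPM. Cry2 followed at 17.3 ± 1.77 TPM, Clock at 11.3 ± 0.757 TPM, Arntl at 8.44 ± 1.48 TPM and Cry1 at 8.36 ± 0.463 TPM. Per2 (3.91 ± 0.241 TPM), Per1 (2.69 ± 0.340 TPM) and Npas2 (1.42 ± 0.489 TPM) had the lowest levels. The library values of neighbours in this order overlapped for Per3 and Dbp, for Clock and Arntl, and for Arntl and Cry1 in shfLuc. In shPpp1r17 they overlapped for Per3 and Dbp and for Arntl and Cry1. Each other neighbouring pair was separated in each group.

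**Figure D1:**
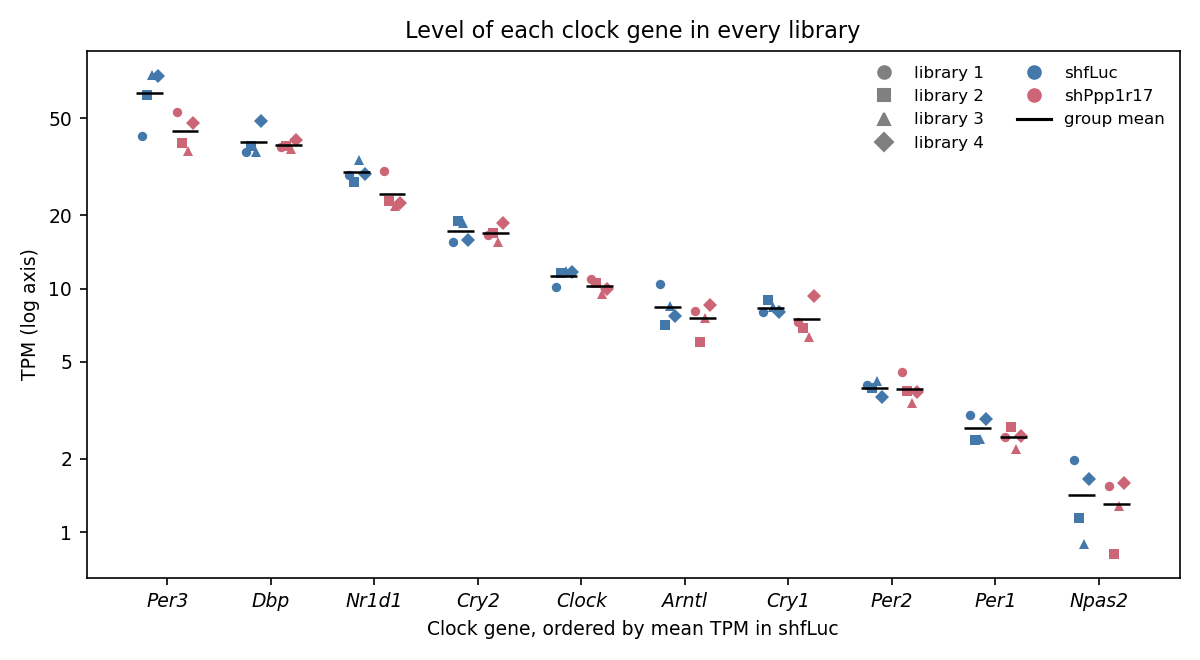
TPM of each clock gene on a log axis, with 1 point per library (shapes for the library number, colours for the group) and a bar at the group mean. Per3 libraries spread from 36.7 to 75.6 TPM, while the 8 Clock libraries lie between 9.51 and 11.8 TPM, and the colours overlap for every gene.

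No activator passed the test, and Clock had the narrowest interval of the 10 clock genes. Clock, which encodes the DNA-binding partner of BMAL1 (GRCm38 chromosome 5, 76209868 to 76304792, minus strand), stood at 10.2, 11.6, 11.8 and 11.7 TPM in shfLuc libraries 1 to 4. In shPpp1r17 libraries 1 to 4 it stood at 11.0, 10.6, 9.51 and 9.96 TPM. The TPM ranges overlapped, and the normalised counts lay closer still, at 63.1 ± 3.74 CPM (reads scaled to library size) in shfLuc and 62.8 ± 2.32 in shPpp1r17 (SD, n = 4 each). The fitted log2 fold change of Clock was -0.0032 (95% interval -0.16 to 0.16, edgeR adjusted p = 0.985), which allows 0.894 to 1.11 times the shfLuc level. Clock varied less between libraries than most genes, with an SD of 0.09 log2 units in shfLuc and 0.05 in shPpp1r17 beside medians over all genes of 0.19 and 0.22.

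Arntl (chromosome 7, 113207465 to 113314126, plus strand), whose loss stops the clock outright, stood at 10.5, 7.08, 8.50 and 7.70 TPM in shfLuc. Its shPpp1r17 libraries stood at 8.08, 6.06, 7.58 and 8.57 TPM. The highest value was shfLuc library 1 and the lowest shPpp1r17 library 2, with the other libraries intermixed. Its log2 fold change was -0.08 (95% interval -0.40 to 0.23, edgeR adjusted p = 0.783). Npas2, the relative of Clock that can stand in for it in the forebrain (chromosome 1, 39193731 to 39363236, plus strand), had 1.98, 1.14, 0.895 and 1.65 TPM in shfLuc and 1.55, 0.815, 1.28 and 1.59 TPM in shPpp1r17. It rested on 60 to 167 reads per library and was the most variable member, with an SD of 0.54 log2 units in shfLuc and 0.44 in shPpp1r17. Its log2 fold change of -0.09 has a 95% interval from -0.73 to 0.54 (edgeR adjusted p = 0.892), which allows 0.602 to 1.46 times the shfLuc level.

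Among the period repressors Per3 differed most between the groups and Per1 and Per2 little. Per1, the period gene that light, hormones and neural activity induce acutely (chromosome 11, 69095217 to 69109960, plus strand), stood at 3.04, 2.39, 2.40 and 2.93 TPM in shfLuc and at 2.46, 2.70, 2.20 and 2.48 TPM in shPpp1r17. Libraries of both groups were intermixed, and the log2 fold change was -0.02 (95% interval -0.37 to 0.32, edgeR adjusted p = 0.949). Per2, the period protein whose mutations shift sleep timing (chromosome 1, 91415982 to 91459324, minus strand), stood at 4.004, 3.90, 4.17 and 3.59 TPM in shfLuc and at 4.57, 3.81, 3.40 and 3.75 TPM in shPpp1r17. The shPpp1r17 group held both its highest and its lowest library. Its log2 fold change was 0.08 (95% interval -0.17 to 0.32, edgeR adjusted p = 0.750).

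Per3, whose protein is the least needed of the period repressors for rhythm itself (chromosome 4, 151003652 to 151044665, minus strand), stood at 42.4, 62.4, 75.6 and 74.6 TPM in shfLuc. In shPpp1r17 it stood at 53.1, 39.5, 36.7 and 47.7 TPM. The 3 highest libraries were shfLuc libraries 2, 3 and 4, but shfLuc library 1 lay below 2 of the shPpp1r17 libraries, so the groups overlapped. Relative to the shfLuc mean of log2 CPM, shPpp1r17 libraries 1 to 4 differed by -0.13, -0.58, -0.63 and -0.30, and shfLuc library 1 by -0.48. The fitted log2 fold change was -0.42 (SE 0.15, 95% interval -0.75 to -0.10), which is 0.745 times the shfLuc level with an interval of 0.594 to 0.935. Its edgeR adjusted p was 0.117 (unadjusted p = 0.0151), so Per3 did not pass the threshold. With shfLuc library 1 left out Per3 passed at a log2 fold change of -0.56 (edgeR adjusted p = 0.0224), and without shPpp1r17 libraries 2 and 3 the log2 fold change was -0.24 (adjusted p = 0.598). DESeq2 (adjusted p = 0.0360) and edgeR with no filter on low counts (adjusted p = 0.0378) also put it past the threshold, and the sign was the same under all 20 alternatives run.

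Summed levels of cell type markers were set beside Per3. Oligodendrocyte markers summed to 611 to 668 TPM in shfLuc and 610 to 1095 TPM in shPpp1r17, with 2 of 6 markers risen, and the highest sums were in libraries 2 and 3, where Per3 was lowest. Microglia and macrophage markers summed to 201 to 286 TPM and 293 to 488 TPM (3 of 7 risen), and blood cell markers to 1115 to 1813 TPM and 2110 to 3873 TPM (5 of 5 risen). Within shfLuc the highest sums of these 2 lists were in library 1, where Per3 was also the lowest of its group. Oligodendrocyte sums ran the other way within shfLuc, at 611, 626, 668 and 626 TPM in libraries 1 to 4. They were lowest in library 1, where Per3 was lowest, and highest in library 3, where Per3 was highest. Plasma cell markers summed to 34.3 to 1439 TPM in shfLuc and 1209 to 6561 TPM in shPpp1r17 (2 of 4 risen), with Mzb1 at 0 in shfLuc libraries 2 and 4. DMH markers, Ppp1r17 included, summed to 490 to 564 TPM and 248 to 443 TPM (0 of 7 passed), and neuronal markers to 2372 to 2521 TPM and 2318 to 2587 TPM (1 risen and 2 fallen of 6). Over all genes 3.39% rose and 2.66% fell. Astrocyte markers summed to 632 to 734 TPM in shfLuc and 583 to 708 TPM in shPpp1r17 (1 risen and 1 fallen of 6). Gfap rose (log2 fold change 1.82, edgeR adjusted p = 0.0124) and Slc1a3 fell (-0.46, adjusted p = 0.0320). Endothelial markers (1 of 5 risen) and pericyte and perivascular markers (1 of 4 risen) had 0 fallen. Of ependymal and tanycyte markers 0 of 4 passed. The part of these cell types in the Per3 values was not tested. In bulk tissue fewer cells of a type and less RNA per cell cannot be told apart.

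The cryptochromes, which carry the strongest repression of CLOCK and BMAL1, did not differ detectably. Cry1 (chromosome 10, 85131700 to 85185064, minus strand) stood at 8.01, 8.99, 8.41 and 8.02 TPM in shfLuc and at 7.29, 6.89, 6.35 and 9.37 TPM in shPpp1r17. Library 4 of shPpp1r17 was the highest of all and the other 3 were the lowest of all. The SD of Cry1 was accordingly 0.04 log2 units in shfLuc and 0.27 in shPpp1r17, and its log2 fold change was -0.10 (95% interval -0.39 to 0.20, edgeR adjusted p = 0.730). Cry2 (chromosome 2, 92403646 to 92434043, minus strand) stood at 15.6, 19.0, 18.6 and 15.9 TPM in shfLuc and at 16.6, 16.9, 15.5 and 18.6 TPM in shPpp1r17. All its libraries were intermixed, with a log2 fold change of 0.06 (95% interval -0.12 to 0.25, edgeR adjusted p = 0.708).

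Nr1d1, the heme-binding nuclear receptor that silences Arntl (chromosome 11, 98767932 to 98775333, minus strand), stood at 29.1, 27.5, 33.8 and 29.6 TPM in shfLuc. Its shPpp1r17 libraries stood at 30.5, 23.0, 21.9 and 22.4 TPM. Libraries 2, 3 and 4 of shPpp1r17 were below every shfLuc library, while library 1 lay within the shfLuc range. The log2 fold change was -0.22 (SE 0.11, 95% interval -0.45 to 0.02), and Nr1d1 did not pass the threshold (edgeR adjusted p = 0.261). With shPpp1r17 library 1 left out it passed at a log2 fold change of -0.34 (adjusted p = 0.0369), and without shPpp1r17 libraries 2 and 3 it stood at -0.13 (adjusted p = 0.742). Nr1d1 shares 263 exon bases on the opposite strand with Thra, a thyroid hormone receptor gene, which is 8.55% of its merged exon bases in GENCODE M21, and the counting is not stated to use strand. Thra itself had a log2 fold change of -0.09 (edgeR adjusted p = 0.659).

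Dbp, the output gene with one of the widest daily swings in most tissues (chromosome 7, 45705088 to 45710203, plus strand), stood at 36.5, 38.7, 36.3 and 48.9 TPM in shfLuc. Its shPpp1r17 libraries stood at 38.3, 38.5, 37.4 and 40.8 TPM and lay inside the shfLuc range. Their SD of 0.05 log2 units was among the smallest of that group (percentile 2.95 over all genes), beside 0.18 in shfLuc. The log2 fold change was 0.01 (95% interval -0.20 to 0.22, edgeR adjusted p = 0.966), which allows 0.869 to 1.17 times the shfLuc level. Dbp shares 539 exon bases, 18.0% of its own, on the opposite strand with Sphk2, a sphingosine kinase gene. Sphk2 had a mean of 5.35 TPM and a log2 fold change of -0.15 (edgeR adjusted p = 0.531). Shared exon bases were fewer for Cry2 (295 bases, 4.67%, with D930015M05Rik at 0.108 TPM) and for Arntl (33 bases with Gm45355, listed at 0).

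**Figure D2:**
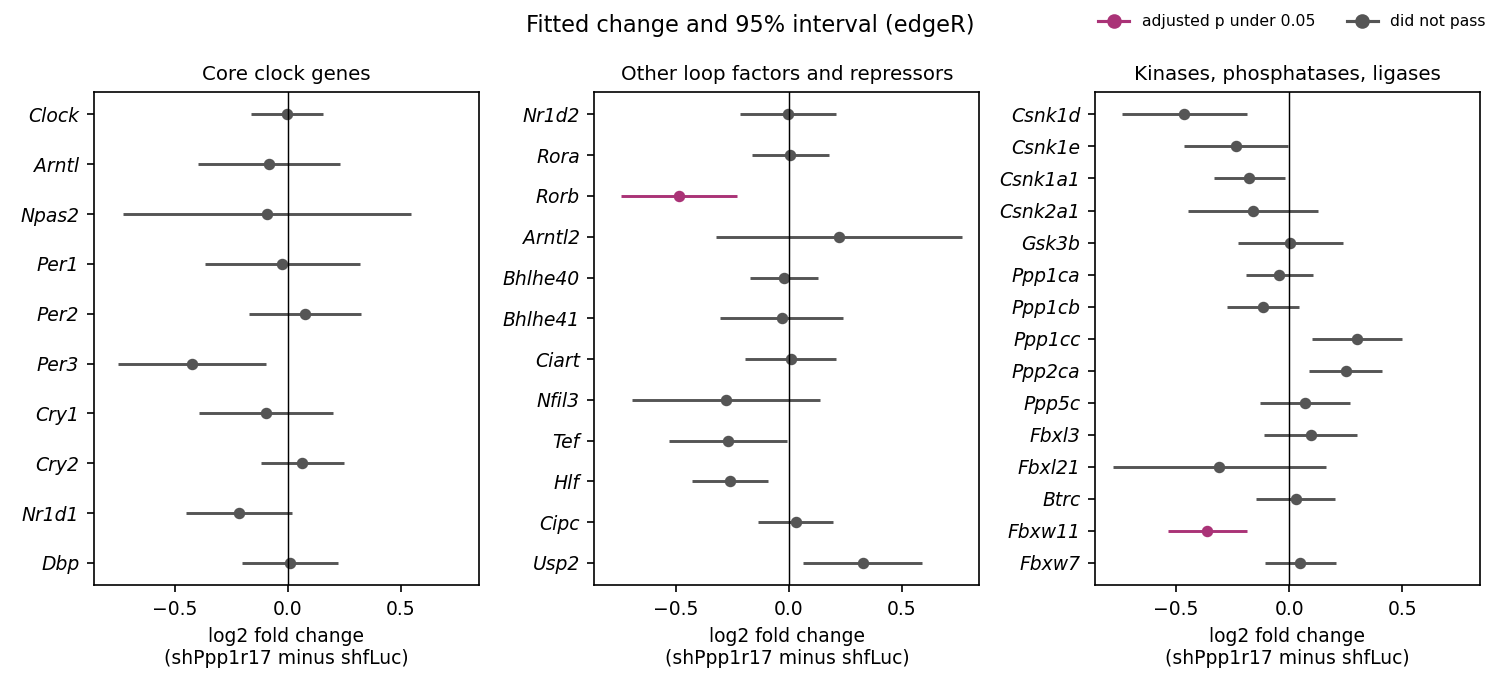
Fitted log2 fold change (shPpp1r17 minus shfLuc) with its 95% interval from edgeR for the 10 clock genes, 12 of the other factors of the clock loop and 15 enzymes that modify clock proteins, drawn where the shfLuc mean was at least 3 CPM. Per3 is the single clock gene whose interval leaves out 0, and the genes in colour, Rorb and Fbxw11, are those with an adjusted p under 0.05.

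Ratios between genes of opposite phase were used to ask whether libraries differed the way a difference in time of day would move them, with one gene of the pair up and the other down. The main pair was Arntl, high when Dbp is low. Its log2 TPM ratio was -1.80, -2.45, -2.09 and -2.67 in shfLuc libraries 1 to 4 and -2.24, -2.67, -2.30 and -2.25 in shPpp1r17 libraries 1 to 4. The group means were -2.25 ± 0.38 and -2.37 ± 0.20 (SD, n = 4 each). They differed by -0.11, less than the spread between libraries (exact two-sided permutation test, p = 0.6, smallest p possible 0.0286). Without shfLuc library 1 the difference was 0.04 (exact permutation p = 0.914).

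Over all 10 opposite-phase pairs the groups did not separate in any, nor in any of 6 pairs of genes with like phase. The pairs do not follow the split into activators and repressors throughout. Cry1, a repressor, was set on the side of Arntl, against Nr1d1 and Dbp, and Clock was paired with Arntl as of like phase. In shfLuc the SD of the log2 ratio within the group had a median of 0.31 for opposite-phase pairs and 0.34 for pairs of like phase. In shPpp1r17 the medians were 0.29 and 0.23, so opposite-phase pairs were the wider in that group and the narrower in shfLuc. Pairs share genes, so they are not independent and were not tested. Within shfLuc, library 1 had the highest ratio in 7 of the 10 opposite-phase pairs and in 3 of the 6 pairs of like phase. Arntl and Npas2 were the highest of the 4 shfLuc libraries there and Per3 the lowest, but Per1, an opposite-phase partner of Arntl, was also the highest. Within shPpp1r17, library 4 was highest and library 2 lowest in 7 of the 10 opposite-phase pairs each. In the 6 pairs of like phase each was so in 1. Relative to the shfLuc mean of log2 CPM, Arntl and Npas2 stood at -0.32 and -0.64 in shPpp1r17 library 2. Of their opposite-phase partners, Nr1d1 (-0.29) and Per3 (-0.58) were also below that mean there. Dbp was at -0.04, Per1 at 0.12 and Per2 at 0.04. For Arntl to Nr1d1, library 4 stood at -1.38 and library 2 at -1.92. The time of collection was not given, so these ratios show only how far the libraries differ and place none of them at an hour.

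**Figure D3:**
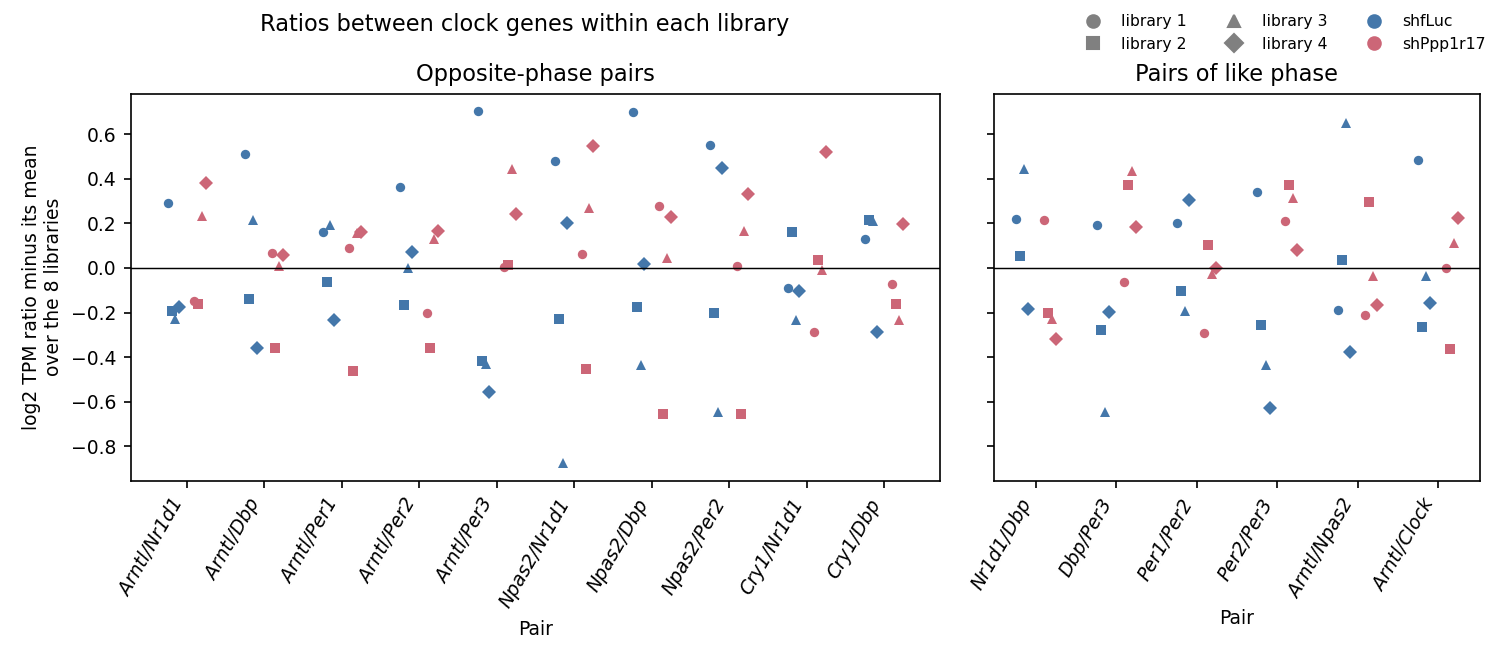
log2 TPM ratio of 10 opposite-phase pairs and 6 pairs of like phase, each minus its mean over the 8 libraries, with 1 point per library. Blue shfLuc and red shPpp1r17 points overlap in all 16 pairs, and shfLuc library 1 (blue circle) lies highest of its group in 7 of the 10 opposite-phase pairs.

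Against the shfLuc mean, 3 of the 10 clock genes were lower in shPpp1r17 library 1, 6 in library 2, 9 in library 3 and 4 in library 4. In the shfLuc libraries themselves the counts were 5, 8, 4 and 5; shfLuc library 2 thus had more clock genes below the mean than shPpp1r17 library 2. The median differences were 0.02, -0.17, -0.09 and 0.02 log2 units, beside medians over all genes of 0.0073, 0.0085, 0.02 and 0.01. Cry1, Nr1d1 and Per3 were at -0.29 to -0.63 in both shPpp1r17 libraries 2 and 3. Suprachiasmatic nucleus markers had medians of -0.80 and -0.42 in the same 2 libraries and 0.23 and 0.05 in libraries 1 and 4. These medians rest partly on genes of few reads. In libraries 2 and 3 Vip had 24 and 10 reads, Nms 4 and 11, Prok2 24 and 16, and Six6 29 and 47. The summed level of the whole list was 88.7 to 94.96 TPM in shfLuc and 41.4 to 81.7 TPM in shPpp1r17, most of it from Grp and Syt10. The part of this list in the clock values was not tested.

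**Figure D4:**
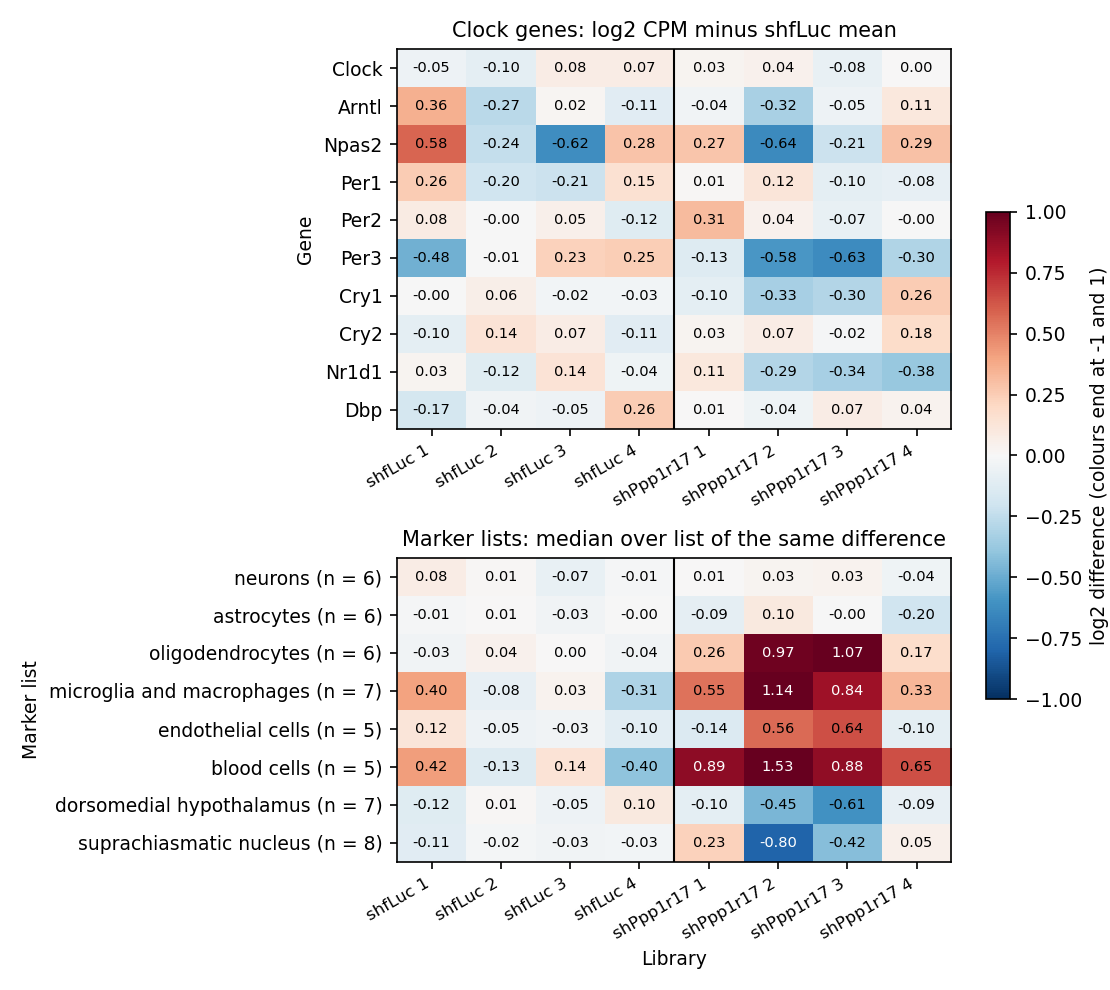
Difference in log2 CPM from the shfLuc mean in each library, for the 10 clock genes (top) and as the median over each marker list (bottom), with n the number of markers tested. Oligodendrocyte markers reach 0.97 and 1.07 in shPpp1r17 libraries 2 and 3, where Per3 lies at -0.58 and -0.63.

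Other transcription factors and repressors of the clock loop gave 1 call. Of 14 measured genes 1 fell and 0 rose by edgeR, near the 6.06% called over all genes, and 4 had an unadjusted p under 0.05, against 22.6%. The list's median log2 fold change was -0.01. The one that fell was Rorb, an activator that competes with REV-ERB proteins for the receptor element, at 31.9, 39.9, 43.4 and 38.7 TPM in shfLuc and 33.6, 24.4, 22.2 and 24.8 TPM in shPpp1r17. Library 1 of shPpp1r17 overlapped the control range and the other 3 lay below it. Its log2 fold change was -0.48 (SE 0.12, edgeR adjusted p = 0.0329). Hlf, a D-box activator related to Dbp, had separated groups but did not pass (log2 fold change -0.26, SE 0.08, edgeR adjusted p = 0.0679). Usp2, a clock-controlled deubiquitinase, had a log2 fold change of 0.33 in counts (edgeR adjusted p = 0.130), but of -0.05 by limma on log2(TPM + 1). The Rorb call was lost, at adjusted p from 0.0511 to 0.110, without shfLuc library 2, 3 or 4 or shPpp1r17 library 2, 3 or 4. Rorb had an adjusted p of 0.298 without shPpp1r17 libraries 2 and 3 together, and Hlf passed in 6 of 20 alternatives, among them DESeq2 (adjusted p = 0.0272), limma on log2(TPM + 1) (log2 fold change -0.43, adjusted p = 0.0315) and the fit without shPpp1r17 library 1 (0.0446).

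Among 15 kinases, phosphatases and ubiquitin ligases that modify clock proteins 1 fell and 0 rose by edgeR, where 2.66% of all genes fell and 3.39% rose. An unadjusted p under 0.05 was reached by 6 of the 15, against 22.6% of all genes. This list is the closest to the targeted gene, since Ppp1r17 acts on protein phosphatases, several of which work on PER proteins. Fbxw11, a ubiquitin ligase subunit that marks PER proteins for destruction, fell from 22.6, 25.9, 25.4 and 26.6 TPM in shfLuc to 18.4, 18.8, 16.1 and 20.9 TPM in shPpp1r17, with no overlap. Its log2 fold change was -0.36 (SE 0.08, edgeR adjusted p = 0.0228). Csnk1d, the casein kinase that phosphorylates PER proteins, had a log2 fold change of -0.46 (SE 0.13, edgeR adjusted p = 0.0512). Ppp2ca, a catalytic subunit of protein phosphatase 2A, had 0.25 (SE 0.07, adjusted p = 0.0647), and neither passed. Of the other phosphatase genes of the list, Ppp1cc had 0.30 (edgeR adjusted p = 0.0733) and Ppp5c 0.07 (adjusted p = 0.712). Ppp1cb had -0.12 (adjusted p = 0.391) and Ppp1ca -0.04 (adjusted p = 0.759), so no phosphatase gene of the list passed by edgeR. Fbxw11 lost its call (adjusted p from 0.0595 to 0.0810) without shfLuc library 2, 3 or 4 or shPpp1r17 library 2 or 3, and stood at 0.186 without both of the latter. Csnk1d, just short of the threshold, passed in 9 of 20 alternatives, among them DESeq2 (adjusted p = 0.0105), RLE factors (0.0495) and the fits without shPpp1r17 library 1 (0.0433) or 4 (0.0205). Ppp2ca passed by DESeq2 (0.0235), by limma voom with quality weights (0.0331) and without shPpp1r17 library 1 (0.0303).

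Some genes of a list induced by neural activity or CREB, signals that also induce Per1, rose in shPpp1r17. Whether CREB took part was not tested. Of 10 measured genes of this list of 11, 3 rose (3.39% of all genes did) and 0 fell, and the list's median log2 fold change was 0.50 beside -0.02 for Per1. The other 7 did not pass. Their log2 fold changes were 1.24 for Junb, 0.77 for Npas4, 0.51 for Dusp1, 0.17 for Arc, 0.16 for Sik1, 0.01 for Ier2 and -0.03 for Nr4a1. Fos, an immediate early transcription factor, stood at 5.005 to 10.9 TPM in shfLuc and 12.1 to 20.1 TPM in shPpp1r17 (log2 fold change 1.04, SE 0.20, edgeR adjusted p = 0.0136). Egr1, another early transcription factor, rose by 0.83 (SE 0.21, edgeR adjusted p = 0.0356) and Btg2, an antiproliferative early gene, by 0.49 (SE 0.10, edgeR adjusted p = 0.0195). In CPM the groups did not overlap for any of the 3, nor for Junb and Dusp1, which did not pass. That made 5 of the 10 measured genes, against 13.9% of all genes. In TPM the groups did overlap for Egr1, with shfLuc library 2 at 2.70 and shPpp1r17 library 3 at 2.58 TPM. Blood cell and microglial marker sums, given above, were higher in all 4 shPpp1r17 libraries, and their part in these genes was not tested. Fos lost its call without shfLuc library 2 or 3 (adjusted p 0.0606 and 0.0549), Btg2 without shfLuc library 2, 3 or 4 or shPpp1r17 library 2 or 3 (0.0572 to 0.0648), and Egr1 without any 1 of the 8 libraries (0.0557 to 0.102). On log2(TPM + 1) with limma, Btg2 (adjusted p = 0.0812) and Egr1 (0.0754) did not pass either. Without shPpp1r17 libraries 2 and 3 together, 0 genes passed in this list or in the other lists of clock and input genes.

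Hormonal and temperature inputs to the clock showed few calls. Of 12 glucocorticoid-responsive genes 1 rose, against 3.39% of all genes: Cdkn1a, a cell cycle inhibitor, at 11.1 to 15.7 TPM in shfLuc and 14.1 to 22.4 TPM in shPpp1r17 (log2 fold change 0.65, SE 0.15, edgeR adjusted p = 0.0285). Klf9, a hormone-induced transcription factor tied to the clock, had -0.41 (edgeR adjusted p = 0.0882) and Sgk1, a hormone-induced kinase, 0.30 (adjusted p = 0.170). Of 5 measured temperature-responsive genes 0 passed by edgeR, with 1 at an unadjusted p under 0.05. That gene was Rbm3, a cold-inducible RNA-binding protein, at 0.38 (edgeR adjusted p = 0.0558). Cirbp, its relative, had -0.10 (adjusted p = 0.523), and Hspa1a, a heat shock chaperone, 0.35 (adjusted p = 0.545). Cdkn1a lost its call (adjusted p from 0.0564 to 0.1005) without any 1 shfLuc library or without shPpp1r17 library 2 or 3, and did not pass by limma on log2(TPM + 1) (0.0662). Klf9 passed by DESeq2 (0.0297), with no filter (0.0364), by limma voom with quality weights (0.0262) and without shPpp1r17 library 1 (0.0497) or 4 (0.0290). Like it, Rbm3 passed by DESeq2 (0.0130), with no filter (0.0244), with quality weights (0.0358) and without shPpp1r17 library 1 (0.0348) or 2 (0.0492).

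Of 8 suprachiasmatic nucleus markers 1 fell, against 2.66% of all genes. Syt10, a synaptotagmin, stood at 28.4, 24.4, 21.7 and 20.1 TPM in shfLuc and 18.9, 10.9, 8.15 and 8.56 TPM in shPpp1r17 (log2 fold change -0.95, edgeR adjusted p = 0.0288). Lhx1, a transcription factor of that nucleus, had -0.31 (edgeR adjusted p = 0.244). Grp, a peptide that is on the DMH list as well, had -0.41 (adjusted p = 0.295). Syt10 lost its call (adjusted p from 0.0594 to 0.0962) without any 1 shfLuc library or without shPpp1r17 library 2 or 3.

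The genes most like Dbp over the 8 libraries, by the root mean square difference of log2 CPM centred on each gene's mean, were Bicral (0.05), Ndufc1 (0.05) and Trnt1 (0.05). The median gene of the 9701 compared differed from Dbp by 0.19, and Dbp itself had a root mean square of 0.12 about its mean. For Arntl they were Tfb2m (0.07), Wdr36 (0.08) and Epn1 (0.09), beside a median of 0.25 and a root mean square of 0.20 for Arntl. Like Arntl, each was highest in shfLuc library 1 and below its mean in shPpp1r17 library 2, which follows from picking them for likeness over these libraries. No other clock gene was among these 6, but genes of low level, Npas2 among them, were left out of the comparison. A gene that moves opposite to Arntl would not rank as alike, so this absence says nothing about the clock.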

How the data were processed

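Per the labels' protocols, RNA came from a PicoPure kit for small samples, with SMARTer library preparation. Named in the submitters' processing notes are bcl2fastq, DRAGEN, edgeR and limma. The sources used here give no aligner settings, build, annotation or strand. The deposited expected counts (up to 10.1% of genes in a library fractional) were rounded. The deposited TPM values, per the file headers, were used for levels and ratios. Symbols matched 55141 of 55487 identifiers, and the others held at most 0.0319% of a library's reads.

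Groups came from the sample titles. The test was edgeR 4.0.16 in R 4.3.3 (quasi-likelihood, TMM factors, minimum count 10, minimum total count 15, group as single term, Benjamini-Hochberg adjustment over 17339 genes, threshold 0.05), and fold changes are shPpp1r17 relative to shfLuc. Standard errors were derived from the fold change and F. Log2 CPM (counts scaled to library size) carries a prior count of 2. Libraries of the same group were distinct, with a chi-square per degree of freedom of 7.46 to 40.2. On simulated counts the test recovered 47.8% of genes changed 1.5-fold, 68.7% of those changed 2-fold and 90.9% of those changed 4-fold. Of its calls there, 4.17% were false. The simulation gave every shPpp1r17 library the same fold, unlike the uneven Ppp1r17 levels of the real ones. The Arntl to Dbp ratio was compared with an exact permutation test. No molecular identifiers are recorded, so reads copied by PCR may be counted more than once.

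The clock genes, the lists and the tests were chosen with earlier results of these data known. Genes named were the 10 clock genes, Ppp1r17, their overlapping neighbours, from each list those past the threshold or, where fewer than 3 passed, the smallest p up to 3, and 3 genes most like Dbp and Arntl (mean log2 CPM at least 3). Vip, Six6, Nms, Prok2, Gfap and Slc1a3 were named after their values were seen. So were the phosphatase genes other than Ppp2ca and the genes of the activity and CREB list that did not pass. Promoters were from RefSeq (GRCm38.p6), and positions and overlaps from GENCODE M21 on GRCm38, which may differ from the authors' build. Other settings tried were DESeq2 1.42.0, limma 3.58.1 (voom, with and without quality weights, and log2 TPM with a pseudocount of 1 or 0.1), RLE factors, library totals, no filter or at least 1 CPM in 4 libraries, effective length offsets, a block for the replicate number, and fits leaving out 1 library. The fit without shPpp1r17 libraries 2 and 3 was added after seeing the data. Python 3.11.15, NumPy 2.4.6, pandas 2.3.3 and SciPy 1.17.1 were used.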

Additional observations from a re-analysis of the deposited data

Results flagged for a closer look

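A library far from the other 3 of its group, by Dixon's gap test, was found in 7 of 52 sets of 4 values (10 clock genes and 16 ratios in both groups); chance gives about 1 in 20. Clock was lowest in shfLuc library 1, at 10.2 TPM. In CPM it was not, with 60.9, 59.1, 67.0 and 65.5 in shfLuc libraries 1 to 4. Nr1d1 was highest in shPpp1r17 library 1, at 30.5 TPM, where the other 3 libraries stood at 21.9 to 23.0 TPM. The log2 ratio of Arntl to Nr1d1 was -1.47 in shfLuc library 1, above -1.99 to -1.94 in the other 3. In the same library the log2 ratio of Arntl to Per3 was -2.02, above -3.28 to -3.14. Arntl to Dbp was -2.67 in shPpp1r17 library 2 and Arntl to Per1 was 1.16 there, both the lowest of the group. Cry1 to Dbp was -2.61 in shfLuc library 4, where Dbp was highest. The ratios share genes, so these are fewer than 7 independent cases.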

How the results depend on the processing

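Under the 20 alternatives, no clock gene passed in 16, and 1 passed in 4: by DESeq2 (1, Per3), by edgeR with no filter (1, Per3), without shfLuc library 1 (Per3) and without shPpp1r17 library 1 (Nr1d1), so the count ran from 0 to 1 with single libraries left out. The count over all genes was 1877 by DESeq2 and 1763 by limma voom with quality weights against 1050 by edgeR. It ran from 0 to 1548 with single libraries left out and was 37 without shPpp1r17 libraries 2 and 3; the cause was not tested. At an unadjusted p under 0.05, 3309 genes remained without shfLuc library 2 and 3146 without shfLuc library 3. On log2(TPM + 1) 38.8% of calls were higher in shPpp1r17 against 56.0% in the edgeR fit. The difference in the Arntl to Dbp log2 ratio ran from -0.25 to 0.04 with single libraries left out, and its reversal to 0.0382 came without shfLuc library 1. Per3 and Nr1d1 kept their sign in all 20 alternatives, while each of the other 8 clock genes changed sign in 1 to 6 of them. Whether the replicate numbers pair the libraries could not be settled, since correlations over all genes were small. Those of same-numbered libraries ran from -0.012 to 0.12, 1 of 4 above 0.1. The highest of all was 0.12, between the libraries numbered 4, and 2 of 4 shPpp1r17 libraries correlated best with their own number. With the number as a block, Rorb (adjusted p = 0.0668) and Egr1 (0.0628) lost their calls and Csnk1d (0.0375) and Rbm3 (0.0462) passed by edgeR. Under this block 726 genes and 0 clock genes passed by edgeR, with 3673 genes at an unadjusted p under 0.05, and the Arntl to Dbp difference stayed at -0.11 (exact permutation p = 0.5 within pairs). Depth limits Npas2 most, at 60 to 167 reads per library.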

Other observations

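A short motif that an earlier analysis of these same libraries had tied to lower levels in shPpp1r17 (CTCTGATA, or its first or last 7 bases) was looked up in the longest 3' UTR of each clock gene, taken from GENCODE M21. It was found in 3 of the 10 (Clock, Per1 and Cry1), once each, and in 20.2% of 14327 genes searched. Of 439 genes that fell, 56.9% held it, but the motif was chosen from these fold changes, so that share is no independent evidence. Per3 and Nr1d1, the clock genes with the lowest fold changes, did not hold it. Genes named from the lists of loop factors, enzymes, inputs and suprachiasmatic nucleus markers were also looked up where their log2 fold change was below 0. Of these, Rorb, Hlf, Fbxw11, Csnk1d, Klf9 and Prok2 held it. Syt10, which had the lowest fold change of these, Six6, Lhx1, Grp, Cirbp, Nr4a1, Ppp1ca and Ppp1cb did not. The 3' UTRs of these genes ran from 182 bases for Syt10 to 7275 for Rorb, and a longer one has more room for a match.

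The length the authors' tables assign to each gene, which reflects the mix of its transcript forms, overlapped between the groups for all 10 clock genes. It was constant for Per2 at 5833 bases, ran from 4008 to 4117 bases for Per3 and varied most in proportion for Dbp, from 1290 to 1629 bases, both ends in shfLuc libraries.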
